A study of Homo sapiens with 2 samples.

Results

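The AP-1 family comprises transcription factors that bind DNA as pairs held together by a leucine zipper. The members followed here were the FOS-type genes FOS, FOSB, FOSL1 and FOSL2, the JUN-type genes JUN, JUNB and JUND, the ATF-type genes ATF3 and JDP2, and the MAF-type gene MAFF. They were taken by name, as every probe set whose platform annotation gave 1 of these genes and no other, which yielded 24 of the 54675 probe sets on the array for 10 of 19775 named genes. A probe set is a group of short oligonucleotides read together as 1 intensity, which may stand for 1 transcript or for several. No probe set naming a member named a second gene as well. On their brightest probe sets ATF3, JUN and MAFF were 1.97-fold, 1.82-fold and 1.54-fold higher after 6 h, JDP2 was at least 1.59-fold higher, FOSL2, JUNB and JUND were 1.13-fold to 1.19-fold higher, and FOSB and FOSL1 were too dim to read.

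The cells were CL1-0, an established human lung adenocarcinoma line. The experiment holds 2 Affymetrix arrays, 1 for cells at 0 h and 1 for cells at 6 h of treatment with an antibody to FSTL1, a secreted glycoprotein. Both groups were stably transduced and selected with puromycin per the labels, which name neither the vector nor the dose of antibody. A 6 h culture without the antibody was not analysed here, so the antibody and the time in culture cannot be told apart. With 1 array per time there is no replicate error, no significance test and no interval for any difference below.

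As background, JUN proteins pair with each other or with FOS proteins and bind the TRE, a short element first found in genes that respond to phorbol ester. FOS proteins do not pair with each other stably and need a JUN partner. ATF3 and JDP2 can pair with JUN proteins and often repress, and they also bind the CRE, the longer element recognised by the CREB factors. MAFF is a small MAF protein that lacks an activation domain and acts through its partners, among them the NFE2L factors. Many genes of the family are immediate early genes, which growth factors and stress induce within minutes to hours and whose transcripts decay quickly.

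The sequence upstream of 4 members is shown to set the 3 genes read on both arrays and at least 1.5-fold higher at 6 h (JUN, ATF3 and MAFF) beside JUND, which shares a motif with MAFF and differed little. Each is the 250 bases before the first listed start of the gene, from RefSeq on GRCh38.p14, 5′ to 3′ on the gene's strand. The stretches lie at chr1:58784048-58784297 on the minus strand for JUN, chr1:212565157-212565406 on the plus strand for ATF3, chr22:38201744-38201993 on the plus strand for MAFF and chr19:18281623-18281872 on the minus strand for JUND. Capitals mark matches to the motifs named after the sequences.
JUN: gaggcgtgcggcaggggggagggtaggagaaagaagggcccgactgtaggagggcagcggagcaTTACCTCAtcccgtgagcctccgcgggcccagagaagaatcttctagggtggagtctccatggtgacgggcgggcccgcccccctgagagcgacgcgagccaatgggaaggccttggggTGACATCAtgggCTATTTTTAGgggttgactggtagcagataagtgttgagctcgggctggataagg
ATF3: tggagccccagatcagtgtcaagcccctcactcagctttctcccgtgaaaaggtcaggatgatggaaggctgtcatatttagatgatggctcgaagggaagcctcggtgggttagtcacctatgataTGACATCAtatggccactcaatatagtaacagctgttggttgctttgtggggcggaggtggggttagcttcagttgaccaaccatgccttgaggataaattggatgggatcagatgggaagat
MAFF: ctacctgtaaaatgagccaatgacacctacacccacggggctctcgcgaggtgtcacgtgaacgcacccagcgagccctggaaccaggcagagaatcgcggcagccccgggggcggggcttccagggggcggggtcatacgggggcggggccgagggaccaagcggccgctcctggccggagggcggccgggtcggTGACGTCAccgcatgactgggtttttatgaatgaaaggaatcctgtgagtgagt
JUND: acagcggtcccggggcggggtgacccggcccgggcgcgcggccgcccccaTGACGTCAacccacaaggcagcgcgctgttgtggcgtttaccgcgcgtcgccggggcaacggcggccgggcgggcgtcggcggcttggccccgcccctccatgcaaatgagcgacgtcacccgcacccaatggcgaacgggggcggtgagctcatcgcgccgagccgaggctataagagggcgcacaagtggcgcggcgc

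Motifs were searched on both strands in windows from 250 bases before to 50 after each start, which the table holds for 9 of the 10 members (not FOSL1). The motifs were the TRE (TGACTCA), the CRE (TGACGTCA), the variants known from the JUN promoter (TGACATCA and TTACCTCA), the CEBP-ATF element (TGATGCAA), the CArG box bound by SRF, and the MEF2 site. JUN held TTACCTCA, TGACATCA and a MEF2 site (CTATTTTTAG), from bases -186, -67 and -55 of its start. ATF3 held TGACATCA from base -123 of the first of its 2 listed starts. The window of the second begins at chr1:212614768 and held none of the motifs. Which of the ATF3 starts the measured transcripts used was not determined. MAFF and JUND each held 1 CRE, from bases -54 and -200. Among the windows not printed, FOSL2 held 1 TRE and the second of the 3 JDP2 starts held 1 TGATGCAA, and none of the matches overlapped another. Over 35116 promoter windows of the same length, 2.61% held TGACATCA, 0.715% TTACCTCA, 1.85% the CRE, 4.95% the TRE, 0.866% TGATGCAA, 2.99% a MEF2 site and 1.29% a CArG box. No member window held a CArG box. Sites more than 250 bases before a start were not searched, so a member without a match may still hold the motif there. A match describes the letters in the window and is not evidence of binding.

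Values are intensities on the linear scale as deposited. An intensity of 45.4, the 50th percentile of both arrays pooled, was taken as a floor for background, and a lower value was set to it before log2 differences (6 h minus 0 h) were formed. Of the 24 probe sets, 9 lay above the floor on both arrays, 4 at 6 h only, 0 at 0 h only and 11 on neither. Among all 41097 single-gene probe sets, 1.41% lay above the floor at 6 h only and 1.86% at 0 h only. The 4 sets that passed through the 6 h array alone have only a lower bound, and their direction is set by the floor. For the 11 on neither array only the deposited values are given, and no difference is drawn from them.

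**Figure D1:**
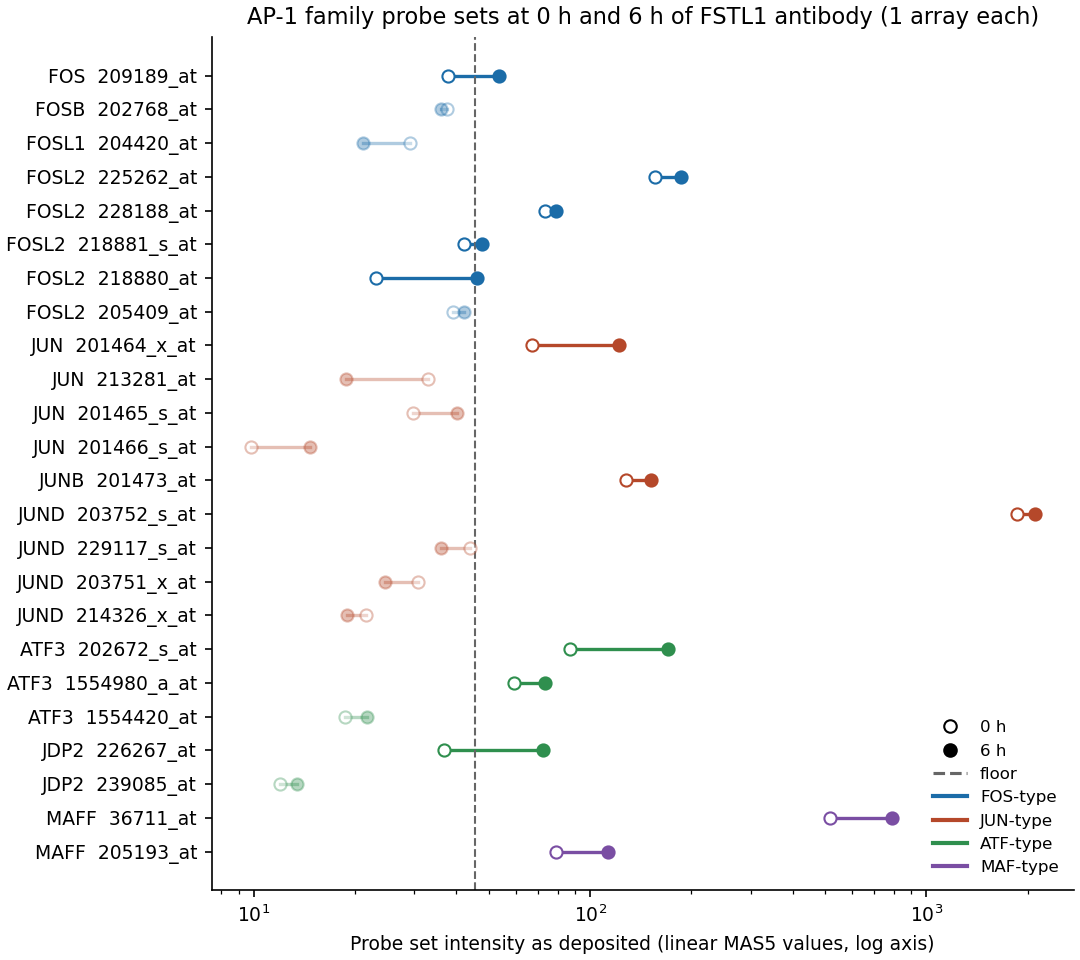
Deposited intensity (log axis) of each of the 24 AP-1 family probe sets at 0 h (open circle) and 6 h (filled circle), 1 array each, coloured by type, with the floor of 45.4 dashed and sets below it on both arrays drawn faint. The 9 sets to the right of the floor on both arrays all have the filled circle to the right of the open one, while the faint sets go both ways.

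All 9 probe sets above the floor on both arrays were higher at 6 h, against 55.5% of the 21935 single-gene sets so placed. They belong to FOSL2, JUN, JUNB, JUND, ATF3 and MAFF. In RNA from a whole culture, more transcript per cell and more cells holding the transcript cannot be told apart. Of these 9, 3 were at least 1.5-fold higher, where the background was 0.757%, and 0 were at least 1.5-fold lower, where it was 0.169%. No member reached 2-fold, which 0.0319% of those sets did. With the 4 bounds added, 4 of 13 sets passed 1.5-fold higher, against 0.76% of 23278 measured sets, a count that the floor helps to set. Of the 11 dim sets, 5 had the higher deposited value at 6 h (45.5%), where 41.9% of all 17819 single-gene sets below the floor on both arrays did. Over all 24 sets, with no floor, 18 were higher, where the background was 49.2%. The members were chosen with earlier results of these data known, so these shares describe the list and are not independent evidence about the family.

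The ATF-type member ATF3, a stress-induced factor that binds CRE-like elements, had the largest difference among the members above the floor on both arrays. Its brightest probe set (202672_s_at) read 86.8 at 0 h and 171 at 6 h. That is 1.97-fold higher, or 0.98 on the log2 scale, and 11 of the 23278 measured sets, itself included, were as high. Its other measured set (1554980_a_at) read 59.4 and 73.2, 1.23-fold higher or 0.30 on the log2 scale. The sets of ATF3 thus gave the same direction with unlike sizes. Across 5791 genes with several sets above the floor, log2 differences varied between sets for the same gene by an SD of 0.16. The third ATF3 set (1554420_at) was dim, at 18.7 and 21.8.

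JDP2, a repressor that pairs with JUN proteins, was below the floor at 0 h on its brighter set (226267_at), which read 36.7 and 72.2. Against the floor it was at least 1.59-fold higher, and the ratio of the values as deposited was 1.97. Its other set (239085_at) was far below the floor, at 12.0 and 13.4. JDP2 therefore rests on 1 probe set with a dim first value, and its difference has no check from another set.

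Among JUN-type members, JUN, the founding partner of the FOS proteins, had the largest difference. Its 1 measured set (201464_x_at) read 67.2 at 0 h and 122 at 6 h, 1.82-fold higher or 0.86 on the log2 scale. Of the measured sets, 26 were as high, itself included. The suffix _x_at marks a set whose oligonucleotides may also bind other transcripts, and no other set of JUN was measured. The remaining 3 sets of JUN were dim and disagreed: 201465_s_at read 29.7 and 40.3, 201466_s_at 9.79 and 14.7, and 213281_at 32.9 and 18.8. These pairs of values are all under the floor and do not go one way. Of 17819 single-gene sets below the floor on both arrays, 1.96% differed by at least 1.5-fold in either direction, against 0.925% of those above it.

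JUNB, which often opposes JUN in growth control, read 128 at 0 h and 152 at 6 h on its only set (201473_at). This was 1.18-fold higher, or 0.24 on the log2 scale, and 87.4% of measured sets had a smaller or more negative difference. JUND, the family member made most steadily in resting cells, had a bright set (203752_s_at) at 1860.0 and 2097. It was 1.13-fold higher, or 0.17, and among the sets of like brightness (each set was placed in 1 of 4 equal brightness groups) 84.6% lay lower. The other 3 sets of JUND were below the floor on both arrays, at 43.8 and 36.1 (229117_s_at), 30.7 and 24.6 (203751_x_at), and 21.5 and 19.0 (214326_x_at). Neither JUNB nor JUND came near 1.5-fold.

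FOS-type members were dim or differed little. FOS itself, the classical immediate early gene, read 37.9 at 0 h and 53.7 at 6 h (209189_at). It was at least 1.18-fold higher against the floor, with a ratio of 1.42 as deposited. FOSB read 37.5 and 36.0 (202768_at) and FOSL1, a FOS relative without the usual activation domain, read 29.2 and 21.2 (204420_at). Neither passed the floor on either array, and so no difference was detectable for them at this signal.

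FOSL2, also a FOS relative without that domain, was the FOS-type gene measured on both arrays. Its brightest set (225262_at) read 156 and 186, 1.19-fold higher or 0.25 on the log2 scale, and the next (228188_at) read 73.3 and 79.2, or 0.11. Both were higher at 6 h by a small amount. A further 2 sets passed the floor at 6 h alone, 218881_s_at at 42.2 and 47.7 and 218880_at at 23.1 and 46.0. The last has a ratio of 1.99 as deposited but a bound of only 1.01-fold, since its 6 h value sits on the floor. The fifth set (205409_at) was at 39.0 and 42.3, below the floor.

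MAFF gave 2 measured sets with similar differences. The brighter (36711_at) read 516 at 0 h and 792 at 6 h, 1.54-fold higher or 0.62 on the log2 scale. The dimmer (205193_at) read 79.3 and 113, 1.42-fold higher or 0.51. Of the sets in the same brightness group, 99.5% and 98.2% had lower differences. MAFF was the only member with every one of its probe sets above the floor on both arrays among those with several sets.

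**Figure D2:**
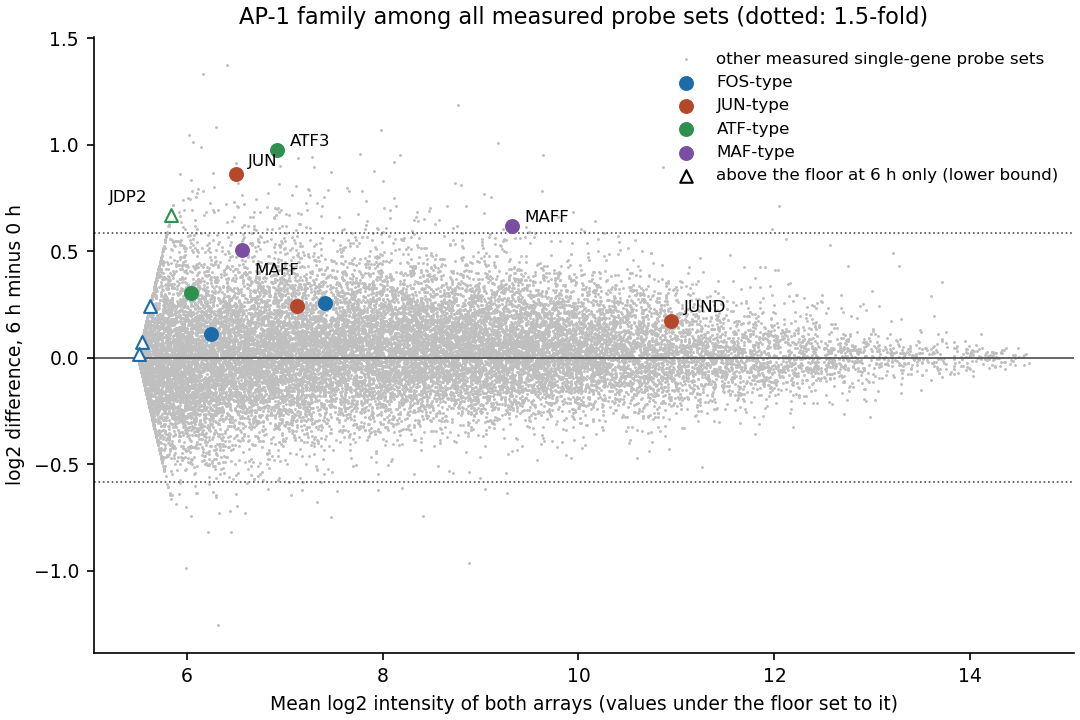
Log2 difference (6 h minus 0 h) against mean log2 intensity for the 23278 measured single-gene probe sets (grey) and the AP-1 family sets (coloured by type), with triangles for sets above the floor at 6 h only and dotted lines at 1.5-fold. Sets of ATF3 (0.98), JUN (0.86) and MAFF (0.62) lie above the upper line, and JUND (0.17) lies far to the right within the grey cloud.

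By type, with each gene taken at its brightest measured set, 0 of 2 measured FOS-type genes, 1 of 3 JUN-type genes, both ATF-type genes and MAFF were at least 1.5-fold higher, against 0.75% of 12669 measured genes. The median log2 difference was 0.25 for the FOS-type, 0.24 for the JUN-type and 0.82 for the ATF-type genes, and MAFF was at 0.62, where the median of all measured genes was 0.02. The FOS-type median includes the bound for FOS and the ATF-type median that for JDP2. The count of ATF-type genes also includes JDP2, whose direction is set by the floor. Among genes above the floor on both arrays, 3 of 6 members passed 1.5-fold higher, against 89 of 12070 genes. By type these were 0 of 1 FOS-type, 1 of 3 JUN-type, 1 of 1 ATF-type and 1 of 1 MAF-type genes. Members are not replicates and the types hold 1 to 3 measured genes each, so the contrast between types was not tested. For the 6 genes above the floor on both arrays the median was 0.44.

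The calls of JUN and ATF3 rest on their _x_at and _s_at probe sets. Without sets of these kinds JUN and JUND were not measured, and ATF3 had a log2 difference of 0.30. There 2 member genes remained past 1.5-fold, JDP2 and MAFF, of which only MAFF was above the floor on both arrays. MAFF lay just under 1.5-fold after quantile normalization (0.57), after a loess curve was taken off (0.57) and with the median of its sets (0.56). JDP2 was not measured with the floor at the 60th percentile.

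**Figure D3:**
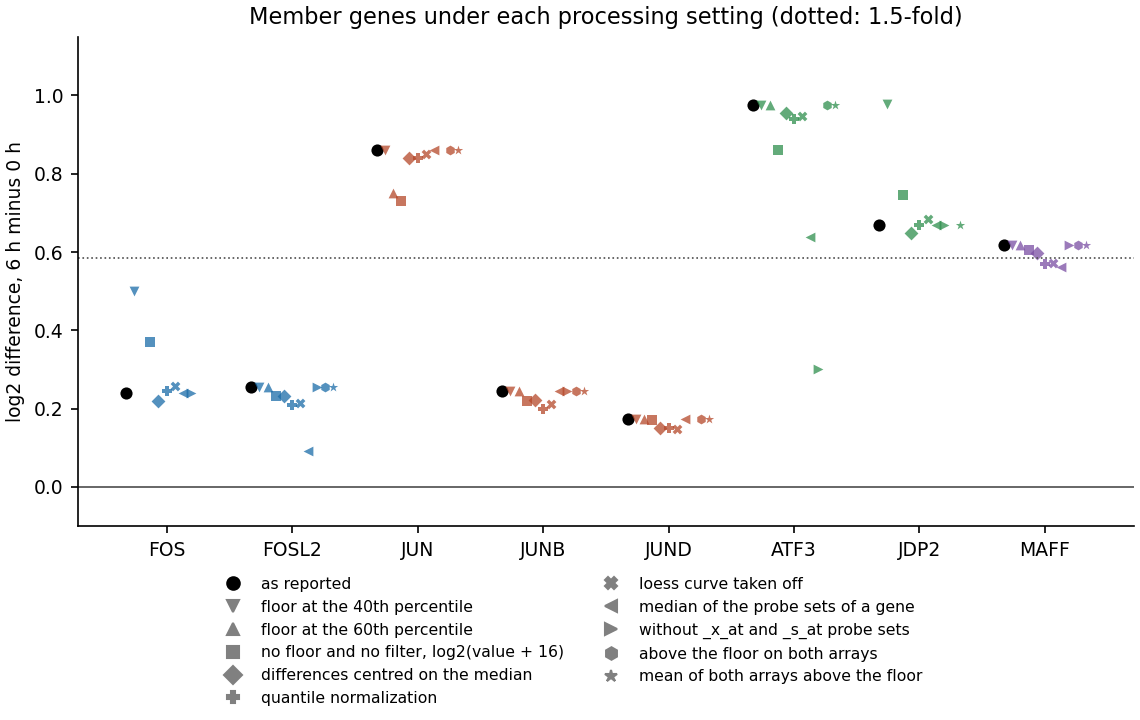
Log2 difference (6 h minus 0 h) of the 8 measured member genes as reported (black) and under each other processing setting (coloured by type, 1 symbol per setting), with 1.5-fold dotted. ATF3 ranges from 0.30 to 0.98, JUN from 0.73 to 0.86, MAFF from 0.56 to 0.62, and FOSL2, JUNB and JUND stay between 0.09 and 0.25. FOS, from 0.22 to 0.50, and JDP2, from 0.65 to 0.98, depend on where the floor lies.

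Partner, upstream and target genes of AP-1 were taken from 3 lists. Of 28 other bZIP partners, the leucine zipper factors outside the 10 members, 22 were measured, 1 was at least 1.5-fold higher and 0 lower (background 0.75% higher and 0.182% lower), with a median log2 difference of 0.18. The 1 past that size was DDIT3, a stress factor that pairs with CEBP and ATF proteins, at 410.0 and 823. Next came ATF4, the main factor of the integrated stress response and a known activator of ATF3, at 5933 and 7994 (0.43). ATF2, a partner of JUN at CRE-like elements, read 1376 and 1831 (0.41) with a second set at 0.01, and CEBPB read 2154 and 2849 (0.40). In all 18 of the 22 partners were higher and 4 lower, against 54.3% of measured genes higher. The partners measured on both arrays numbered 20, with 16 higher and a median of 0.15.

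Kinases and factors that act upstream of AP-1 had a median near that of all measured genes. Of 27 listed, 23 were measured, the median was 0.02, and 0 passed 1.5-fold in either direction, where the background was 0.75% higher and 0.182% lower. ELK3, an ETS factor that binds beside SRF, read 393 and 531 (0.43), and MEF2D, a factor known to bind the JUN promoter, read 147 and 188 (0.36) with 3 sets between -0.11 and 0.36. MEF2A read 456 and 566 (0.31), with 4 sets between 0.21 and 0.39. MAPK10, a JNK-family kinase, was lower at 79.7 and 63.5 (-0.33). JNK and ERK kinases act on AP-1 largely by phosphorylation, which transcript levels do not report.

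Genes known as AP-1 targets had a median log2 difference of 0.04. Of 31 listed, 16 were measured, with 10 higher and 6 lower, against 54.3% higher over all measured genes. On the brightest set of each gene 0 of the 16 were at least 1.5-fold higher, where the background was 0.75%. The phosphatase gene DUSP1 was the nearest, at 448 and 670, or 1.497-fold (0.58), and its 3 sets lay between -0.17 and 0.59, the highest just past 1.5-fold. VEGFA read 1153 and 1637 (0.51), with 4 sets between 0.13 and 0.51. HBEGF, an EGF receptor ligand, read 133 and 176 (0.40), with a second set at 0.03, and PLAUR, the urokinase receptor, read 94.1 and 114 (0.27), with a second set at -0.08. The collagenase and stromelysin genes MMP1 and MMP3, which hold classical AP-1 sites, and the cytokine genes IL6 and CXCL8 were below the floor on both arrays.

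**Figure D4:**
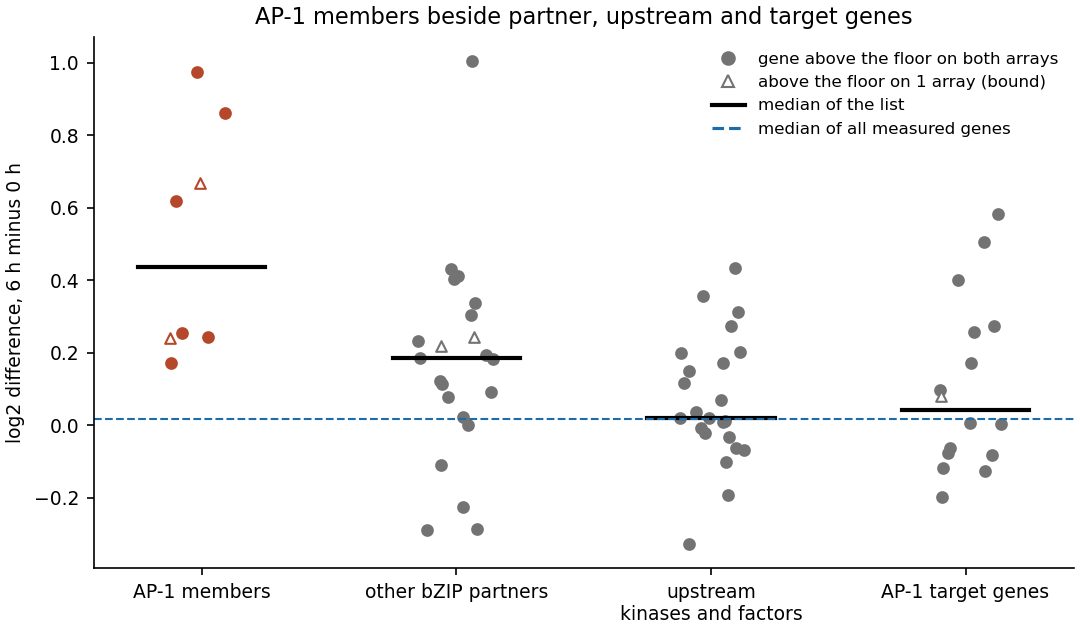
Log2 difference (6 h minus 0 h) of each measured gene at its brightest probe set for the AP-1 members and 3 related lists, with black bars at the medians (0.44, 0.18, 0.02 and 0.04) and the median of all measured genes (0.02) dashed. Triangles are bounds, and the highest partner gene is DDIT3 (1.01).

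Over all probe sets the median intensity was 45.8 at 0 h and 44.9 at 6 h. The labels call the cells type II alveolar cells. Of 7 alveolar type II markers with a single-gene set, 5 lay above the floor on both arrays (ABCA3, NAPSA, NKX2-1, SFTPB and SFTPC) and LAMP3 and SFTPD on neither. Their summed intensity was 539 at 0 h and 601 at 6 h. The keratins KRT8 and KRT18 were above the floor, while EPCAM, KRT19 and CDH1 were not. Leukocyte markers were all below the floor (0 of 3, summed 63.6 and 56.4), and 1 of 5 fibroblast markers (COL1A1) and 1 of 5 endothelial markers (PECAM1) were above it on both arrays. The summed fibroblast and endothelial markers were 341 and 127 at 0 h and 285 and 107 at 6 h, and the 5 lung epithelial markers summed to 237 and 211. All of these sums but the alveolar one were lower at 6 h. The sums include markers below the floor on both arrays. These were 3 of 3 leukocyte, 4 of 5 endothelial, 3 of 5 fibroblast and 3 of 5 lung epithelial markers. Of all single-gene sets so placed, 41.9% were higher at 6 h, and so no direction is drawn from the sums. Any part of these cell types in the differences of the members was not tested.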

How the data were processed

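The deposited table gives an intensity per probe set, linear and not log-transformed, in 1 column per array, made with MAS5 per the submitters' processing notes. MAS5 subtracts a local background and a mismatch signal, which leaves dim values noisy. Its version, its parameters and any scaling of the arrays to a common mean are not given in the sources used here, so the scale between the arrays is unknown. A constant scaling difference would move alike only the sets that stay above the floor on both arrays. It would also change which sets pass the floor.

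Of 54675 probe sets 41097 had 1 gene and 1801 several. Symbols were updated by Entrez identifier through a RefSeq table (41043 matched). Values under the floor (50th percentile of both arrays, 45.4) were set to it, and a set was measured when above it on at least 1 array. 4 equal brightness groups were formed over the sets above the floor on both arrays. Analysis used Python 3.11.15 with pandas 2.3.3 and statsmodels 0.14.6, and the steps were tested on simulated data. The simulated differences were larger than those of the members, lay in bright sets and had little noise. Dim sets and smaller differences were therefore not tested. Members and lists were chosen with earlier results of these data known. Named are all members and, from each related list, up to 4 measured genes with the largest absolute difference. MMP1, MMP3, IL6, CXCL8, and the genes under the closing observations, were named after their values were seen. The number of arrays limits the precision. Alternatives were other floors (40th and 60th percentile), no floor with log2(value + 16), centring, quantile and loess scaling (span 0.3), the median of a gene's sets, and leaving out _x_at and _s_at sets. A further 2, a floor on both arrays and a floor on their mean, were added after seeing the data.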

Additional observations from a re-analysis of the deposited data

How the results depend on the processing

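No paired analysis was possible because each time has 1 array and the labels give no replicate numbers. Of 231 comparisons of a result with an alternative, 221 stayed within 1.5 times the count or within the SD between probe sets of a gene, and 10 moved further. The 221 include counts that were 0 under every setting. A member that was not measured under an alternative, such as JUN without _x_at and _s_at sets, was not compared there. Every alternative used the same 2 arrays, so the number that stayed does not measure how repeatable the differences are. The 6 members above the floor on both arrays stayed higher at 6 h under each alternative in which they were measured. For FOS and JDP2 the floor as reported fixes the direction. With the floor at the 40th percentile their differences were 0.50 and 0.98, and with no floor and log2(value + 16) they were 0.37 and 0.74. These rest on dim values at 0 h. FOSB and FOSL1 had values only where the floor was lowered or left out, and were lower there. Without _x_at and _s_at sets, 2 member sets and 2 member genes were at least 1.5-fold higher (4 and 4 as reported), and the ATF-type median was 0.49. With the median of a gene's sets the ATF-type median was 0.65 (0.82 as reported). With a floor on the mean of both arrays the median over member genes was 0.62 (0.44 as reported), since FOS was no longer measured. The median of the upstream list ranged from -0.03 to 0.08, so its sign is not settled. Signal limits FOS, FOSB, FOSL1 and JDP2, whose sets were below the floor at 0 h.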

Other observations

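The partners of MAFF were described by the same values. MAFG, a small MAF protein like MAFF, read 543 at 0 h and 669 at 6 h, 1.23-fold higher, with log2 differences of 0.27 and 0.30 over its 2 measured sets. The large partners NFE2L1 and NFE2L2, activators of antioxidant and proteasome genes, read 852 and 1002, and 3374 and 3832. Their log2 differences were 0.18 to 0.23 over 3 sets and 0.18 to 0.41 over 2 sets. BACH1, a repressor that uses the same partners, read 740.4 and 801, a difference of 0.11. BACH2, its relative, read 55.4 and 63.5 (0.19). NFE2L3 was lower at 6 h, at 128.9 and 119.6 (-0.11). None of these reached 1.5-fold.

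The BATF proteins, small factors that pair with JUN, went different ways. BATF was above the floor at 6 h only, at 42.5 and 53.7, and so at least 1.18-fold higher. BATF2 read 74.7 and 61.1 (-0.29) and BATF3 read 152 and 160.3 (0.08). CEBPD, a leucine zipper factor of the CEBP family, was also lower, at 259 and 212 (-0.29).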
